A study of Mus musculus with 4 samples.

Results

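Gene expression was compared between day 2 and day 0 of adipogenesis in brown preadipocytes that keep MLL4, a histone H3K4 methyltransferase. The members are all genes measured in 2 of the 4 RNA-Seq libraries of the study, both from cells infected with Ad-GFP, an adenovirus that carries green fluorescent protein. Each file lists 29082 RefSeq transcripts, of which 28436 could be given a symbol, and the transcript with the most reads over all 4 libraries stood for each of the resulting 22463 symbols. The size of the change between the days did not enter that choice. The cells came from interscapular brown fat of C57BL/6J embryos at E18.5 and were immortalized with SV40T carried by a retrovirus. They lack *Mll3* (Mll3-/-) and have a floxed *Mll4* gene, which Ad-GFP leaves intact. The labels call these cells WT, yet the loss of *Mll3* is shared by both libraries. The other 2 libraries are the same cells after Ad-Cre, which removes floxed *Mll4*, and are used below for values set side by side. Day 0 was 2 days after confluence, and the day 2 cells had then been kept for 2 days with insulin (0.02 mM), T3 (1 nM), indomethacin (0.125 mM), dexamethasone and IBMX (0.5 mM). Each condition is 1 library from 1 immortalized line, with no replicate check, and the culture medium and the time in culture cannot be told apart in any ratio.

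Adipogenesis runs through a cascade of transcription factors in which early factors such as C/EBPβ and the glucocorticoid receptor induce PPARγ and C/EBPα, which then bind together at fat cell genes. A cell that becomes a fat cell takes up fatty acids and glucose, esterifies fatty acids to glycerol and stores the product in a coated droplet. It also changes from a spread, contractile shape with actin stress fibres and a collagen-rich matrix to a round shape within a basement membrane. Brown fat cells are rich in mitochondria and, when stimulated, release heat through uncoupling protein 1. The induction cocktail acts on the insulin, glucocorticoid, thyroid hormone, prostaglandin and cAMP pathways (IBMX keeps cAMP from being broken down), so genes of each pathway are described in turn.

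The deposited counts of each library summed to 17029623 at day 0 and 22099995 at day 2. RPKM, the reads of a transcript scaled to its exon length and to the mapped reads of the library, was compared as deposited. An expressed gene is one above 1 RPKM on either day, and a gene is said to have risen or fallen when its RPKM ratio was past 2.5-fold, the cutoffs of the study's methods. Of 11541 expressed genes, 967 rose (8.38%), 1462 fell (12.7%) and 9112 stayed within 2.5-fold. The falls were more frequent also past 4-fold, with 428 rises and 890 falls, and past 10-fold, with 182 and 350. Past 50-fold they were not, with 78 rises and 72 falls. The study's own count with the 2.5-fold cutoff, over more expressed genes, had more rises than falls. The source of this difference was not tested. The median log2 ratio of day 2 over day 0 over all expressed genes was 0.15, and it was 0.007 after TMM scaling, so medians of gene lists are set beside 0.15 throughout. Where a named gene that passed the cutoff lay within it with TMM factors, with 1 RPKM added to both sides (a pseudocount), with the summed counts as denominator or with a trend over transcript length (or length and GC content) removed, this is said beside its value. Intervals printed with a ratio are exact binomial 95% intervals of the reads, which hold counting error and no spread between cultures. In bulk RNA, fewer cells of a type and less RNA per cell cannot be told apart.

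Markers of the labelled cell type were present. Of 8 brown preadipocyte markers all were expressed and 4 fell, among them *Pdgfra*, a growth factor receptor, which had 73.6 RPKM at day 0 and 7.63 at day 2. Of 8 mature fat cell markers 7 were expressed and all 7 rose, with a summed level of 16.8 RPKM at day 0 and 1693 at day 2, and the eighth, *Ucp1*, had 1 read at day 0 and none at day 2. No marker of endothelial or epithelial cells was expressed, and the summed levels of these lists were at most 0.358 and 0.143 RPKM. One marker each was expressed for skeletal muscle (*Acta1*, 18.4 to 0.364 RPKM), leukocytes (*Cd14*, 2.02 to 0.465 RPKM) and neural cells (*Tubb3*, 7.66 to 0.252 RPKM), and each of these 3 fell, *Cd14* though within the cutoff with the pseudocount.

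**Figure D1:**
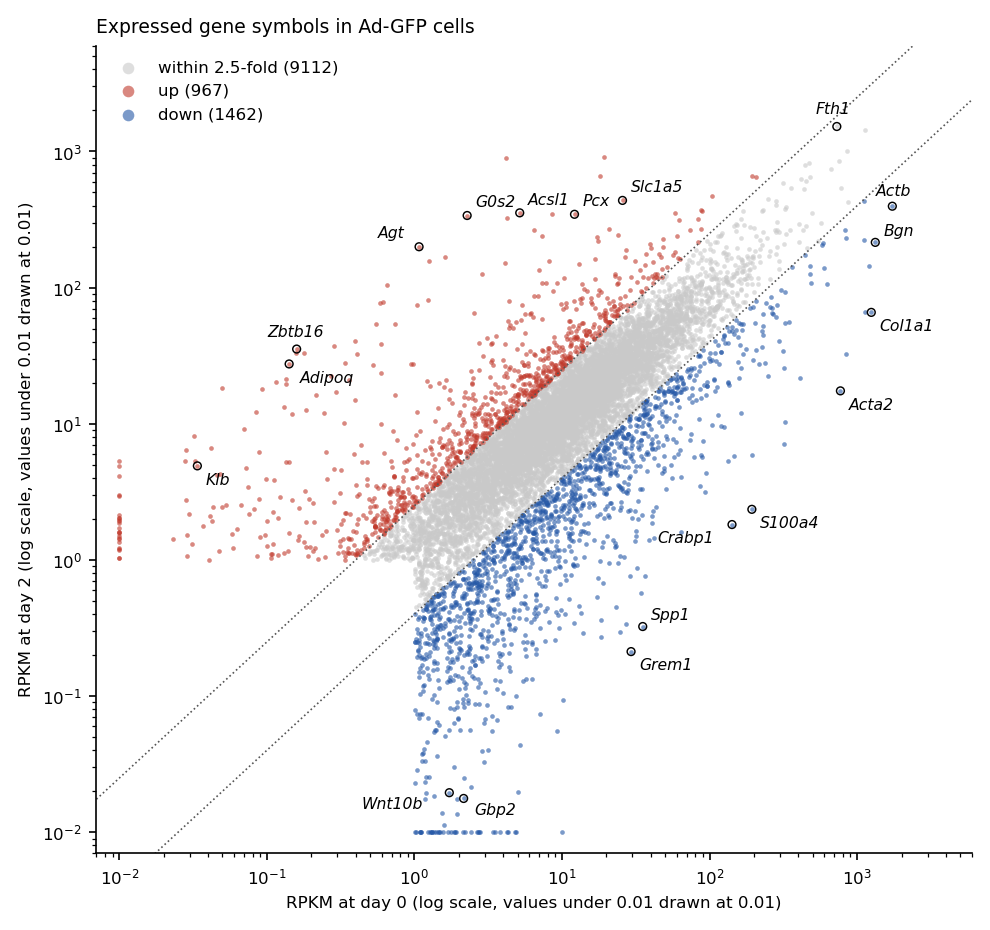
Each point is 1 expressed gene, by its RPKM in Ad-GFP cells at day 0 (x axis) and day 2 (y axis), both on log scales with values under 0.01 drawn at 0.01. Dotted lines mark 2.5-fold, and 967 genes lie above the upper line (red), 1462 below the lower line (blue) and 9112 between them (grey).

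Genes of fat storage were among the largest rises. *Fabp4*, which carries fatty acids in the cytoplasm, had 46 reads at day 0, or 4.17 RPKM, and 13155 reads, or 893 RPKM, at day 2, a log2 ratio of 7.74 (95% interval 7.32 to 8.19). *Adipoq*, the fat cell hormone adiponectin, had 3 reads at day 0, or 0.142 RPKM, and 779 reads, or 27.5 RPKM, at day 2. *Cidec*, which fuses lipid droplets, had 19 reads at day 0, or 0.649 RPKM, and 4116 reads, or 105 RPKM, at day 2. These 3 genes were scarce at day 0 and at 27.5 RPKM or more at day 2. *Mlxipl*, a glucose-responsive transcription factor (ChREBP), had no read at day 0 and 144 reads at day 2, at least 35.9-fold higher when 3 reads are taken as the limit at day 0. *Fa2h*, which hydroxylates fatty acids, had no read at day 0 and 111 at day 2, at least 27.7-fold higher. *C3*, the central complement component, had 14 reads at day 0, or 0.159 RPKM, and 3883 reads, or 32.9 RPKM, at day 2. *Agt*, angiotensinogen, had 34 reads at day 0, or 1.07 RPKM, and 8438 reads, or 199.6 RPKM, at day 2. Among the 20 largest rises, *C3*, *Agt*, *Adcy5* and *Klb* are not part of the fat storage machinery. *Adcy5*, an adenylate cyclase, went from 0.115 to 20.2 RPKM. *Klb*, the co-receptor for FGF21, went from 0.0338 to 4.91 RPKM. Of the 20 largest rises by ratio, 13 are on one of the gene lists used below.

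The largest falls were of other kinds. *Grem1*, a secreted BMP antagonist, had 828 reads at day 0, or 29.4 RPKM, and 8 reads, or 0.212 RPKM, at day 2. *Spp1*, osteopontin, had 894 reads at day 0, or 35.2 RPKM, and 11 reads, or 0.324 RPKM, at day 2. *S100a4*, a calcium-binding protein of motile fibroblasts, had 1660 reads at day 0, or 193 RPKM, and 27 reads, or 2.35 RPKM, at day 2, a log2 ratio of −6.36 (95% interval −6.97 to −5.81). *Crabp1*, which binds retinoic acid in the cytoplasm, had 1808 reads at day 0, or 142 RPKM, and 31 reads, or 1.82 RPKM, at day 2. All 4 were at 29.4 RPKM or more at day 0 and at 2.35 or less at day 2. *Etv4*, an ETS factor induced by FGF, went from 7.04 to 0.0745 RPKM. *Il1rl1*, the receptor for the cytokine IL33, went from 5.17 to 0.0435 RPKM. *Actc1*, cardiac actin, went from 10.2 to 0.0939 RPKM. *Artn*, a neurotrophic ligand, went from 3.15 to 0.0400 RPKM. Of the 20 largest falls by ratio, 7 are on a list.

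A ranking by RPKM gained or lost brings out the abundant transcripts. The gains were led by *Fabp4* and by *Igfbp4*, a secreted IGF-binding protein, which went from 19.4 to 905 RPKM. *Gsn*, gelsolin, which severs actin filaments, went from 205 to 650.5 RPKM. *Slc1a5*, a glutamine transporter, went from 25.7 to 437 RPKM. *Pcx*, pyruvate carboxylase, which supplies oxaloacetate for the export of citrate, went from 12.2 to 346 RPKM. *Fth1*, ferritin heavy chain, gained most after *Fabp4* and *Igfbp4* but stayed within the cutoff at 728 to 1525 RPKM. The losses were led by the cytoskeleton and collagen. *Actb*, β-actin, went from 1731 to 396 RPKM. *Col1a1*, the main chain of type I collagen, had 100715 reads at day 0, or 1247 RPKM, and 7106 reads, or 65.8 RPKM, at day 2, a log2 ratio of −4.24 (95% interval −4.28 to −4.21). *Ptn*, pleiotrophin, a heparin-binding growth factor, went from 1123 to 66.4 RPKM. *Vim*, vimentin, the intermediate filament of mesenchymal cells, went from 1121 to 225 RPKM. *Bgn*, the proteoglycan biglycan, went from 1327 to 215 RPKM.

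Most transcription factors that promote adipogenesis rose: of 27 expressed, 16 rose and 2 fell, and the median log2 ratio was 1.69. *Cebpb*, an early C/EBP factor (chromosome 2, 167514415 to 167515918, plus strand, NCBI37/mm9), already stood at 88.6 RPKM at day 0 and reached 368, a log2 ratio of 2.05 (95% interval 1.99 to 2.12). *Cebpd*, its partner, went from 19.7 to 57.7 RPKM. *Cebpa* (chromosome 7, 35904312 to 35906945, plus strand) had 818 reads at day 0, or 18.02 RPKM, and 40092 reads, or 661 RPKM, at day 2, a log2 ratio of 5.20 (95% interval 5.10 to 5.30). At day 2 the RPKM of *Cebpa* was thus above that of *Cebpb*, the reverse of day 0. *Pparg* (chromosome 6, 115311239 to 115440419, plus strand) had 105 reads at day 0, or 3.29 RPKM, and 1645 reads, or 38.5 RPKM, at day 2, a log2 ratio of 3.55 (95% interval 3.27 to 3.85). *Rxra*, which pairs with PPARγ on DNA, went from 36.3 to 146 RPKM. The KLF factors of the list went both ways. *Klf15* went from 0.406 to 32.7 RPKM and *Klf9* from 6.41 to 86.2 RPKM, while *Klf4*, an early factor, went from 4.13 to 1.40 RPKM, within the cutoff with the pseudocount. *Srebf1*, the factor for fatty acid synthesis genes, went from 48.7 to 226 RPKM. *Nr1h3*, the oxysterol receptor LXRα, went from 0.149 to 2.74 RPKM. *Zbtb16*, a zinc finger factor known as a glucocorticoid target, had 14 reads at day 0 and 4160 at day 2, with 7.80 (95% interval 7.05 to 8.67) as its log2 ratio. *Ebf2*, a factor of the brown lineage, had 9.70 and 16.1 RPKM, and *Nr3c1*, the glucocorticoid receptor, 14.001 and 18.2 RPKM, both within the cutoff. *Zfp467* fell from 6.76 to 1.32 RPKM.

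Factors known to hold adipogenesis back were mixed: of 20 expressed, 3 rose and 5 fell, with a median of −0.40. *Gata2* fell from 15.5 to 3.27 RPKM and *Klf2* from 6.63 to 1.39 RPKM. *Runx2*, the bone cell factor, fell from 9.46 to 3.12 RPKM. *Dlk1*, the preadipocyte membrane protein Pref-1, had 10525 reads at day 0 and 5124 at day 2, and fell from 141 to 51.4 RPKM. The 3 that rose were *Foxo1* (4.21 to 21.9 RPKM), *Ddit3* (40.5 to 122 RPKM) and *Lef1*, a Wnt effector (0.142 to 5.26 RPKM).

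The enzymes that make and break down triglyceride rose over most of the pathway. Of 20 expressed genes of triglyceride synthesis and lipolysis, 12 rose and 2 fell, the median log2 ratio was 2.48, and their summed level went from 186 to 1231 RPKM. *Gpd1*, which makes glycerol 3-phosphate, went from 0.271 to 22.6 RPKM. *Gpat3*, which adds the first fatty acid, went from 1.23 to 81.1 RPKM, against 3.98 to 18.6 RPKM for *Gpam*, which does this in mitochondria. *Agpat2*, the enzyme of the second step, went from 14.1 to 97.7 RPKM. *Lpin1*, a phosphatidate phosphatase, went from 6.03 to 64.1 RPKM. Both enzymes of the last step rose, and the order of their levels turned. *Dgat1* went from 11.99 to 79.6 RPKM. *Dgat2* had 158 reads at day 0, or 4.08 RPKM, and 7864 reads, or 152 RPKM, at day 2, a log2 ratio of 5.22 (95% interval 4.99 to 5.46). The lipases rose at the same time. *Pnpla2*, which takes off the first fatty acid, went from 7.32 to 237 RPKM. *Lipe*, hormone-sensitive lipase, had 359 reads at day 0, or 6.48 RPKM, and 19546 reads, or 264 RPKM, at day 2. *Mgll*, which takes off the last fatty acid, went from 0.131 to 13.4 RPKM. *G0s2*, an inhibitor of the first lipase, had 33 reads at day 0, or 2.28 RPKM, and 6561 reads, or 339 RPKM, at day 2. Its counterpart *Abhd5*, the activator of that lipase, went from 9.20 to 108 RPKM. The isoenzyme *Lpin3* fell from 2.33 to 0.150 RPKM.

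Droplet proteins rose in 9 of 19 expressed genes and fell in 1, with a median of 1.25. *Plin1*, the coat protein of fat cell droplets, had 18 reads at day 0, or 0.546 RPKM, and 2367 reads, or 53.7 RPKM, at day 2, a log2 ratio of 6.62 (95% interval 5.96 to 7.38). *Plin2*, the coat protein of most cells, had 26.8 and 53.1 RPKM and stayed within the cutoff. *Fitm2*, which parts lipid into droplets, went from 7.01 to 134 RPKM. The caveolar proteins moved apart. *Cav1* went from 57.9 to 184 RPKM, while *Cavin1* went from 285 to 74.2 RPKM.

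Fatty acid uptake and activation had 7 rises and 2 falls among 18 expressed genes, and a median of 0.19, near that of all genes. The rises were large and of few members, and the summed level went from 471 to 2358 RPKM. *Lpl*, which frees fatty acids from lipoproteins, went from 4.21 to 326 RPKM. *Cd36*, a fatty acid transporter, had 2 reads at day 0 and 435 at day 2. *Acsl1*, which activates long-chain fatty acids, had 346 reads at day 0, or 5.17 RPKM, and 31674 reads, or 354 RPKM, at day 2, a log2 ratio of 6.10 (95% interval 5.94 to 6.25). The other acyl-CoA synthetases of the list did not rise. *Acsl5* went from 8.43 to 2.11 RPKM, and *Acsl3* and *Acsl4* were at 14.7 and 7.93 RPKM at day 0 and 7.37 and 5.55 at day 2.

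De novo fatty acid synthesis did not move with storage. Of 22 expressed genes 2 rose and 4 fell, with a median of 0.03. *Fasn*, fatty acid synthase, had 84.02 and 90.99 RPKM, a log2 ratio of 0.12 (95% interval 0.08 to 0.15). *Acly*, ATP citrate lyase, had 74.9 and 35.8 RPKM. *Acaca*, acetyl-CoA carboxylase, had 3.89 and 4.92 RPKM. All 3 enzymes of the core pathway were thus within 2.5-fold. The desaturases went apart, with *Scd1* at 76.8 and 174 RPKM, within the cutoff, and *Scd2* falling from 577 to 207 RPKM. *Elovl6*, which lengthens palmitate, fell from 28.2 to 4.78 RPKM.

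Genes of cholesterol synthesis fell or stayed within the cutoff. Of 27 genes written, 26 matched a row and were expressed, of which 13 fell and none rose, with a median log2 ratio of −1.24, and the summed level went from 962 to 457 RPKM. *Fdft1*, squalene synthase, had 1446 reads at day 0, or 29.4 RPKM, and 490 reads, or 7.45 RPKM, at day 2, a log2 ratio of −1.98 (95% interval −2.13 to −1.83). *Sqle*, squalene epoxidase, went from 58.97 to 23.03 RPKM, though within the cutoff with the summed counts as denominator and with the pseudocount. *Sc5d*, a desaturase of a late step, went from 23.5 to 7.22 RPKM. *Insig1*, a sensor that holds SREBP in the endoplasmic reticulum, went from 44.9 to 15.5 RPKM. The fall thus included enzymes and a regulator. *Srebf2*, the factor that drives these genes, had 122 and 59.8 RPKM, and *Lss*, lanosterol synthase, had 34.3 and 39.1, both within the cutoff. The letters TCAC and CCAC, parted by 1 base and searched on both strands as a sterol regulatory element, were in none of 24 promoter windows of 18 of these genes and in 1.24% of all 32851 promoters, which says only that these letters are not in those 300 bases.

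Genes of oxidative metabolism were mostly higher at day 2, many of them by less than the cutoff. The TCA cycle and pyruvate entry had 12 rises and no fall among 31 expressed genes, with a median of 1.20 and a summed level of 993 and then 2662 RPKM. *Pcx* had 867 reads at day 0, or 12.2 RPKM, and 32947 reads, or 346 RPKM, at day 2, a log2 ratio of 4.83 (95% interval 4.73 to 4.93). *Idh3a*, a subunit of the NAD-dependent isocitrate dehydrogenase, went from 16.7 to 163 RPKM. Both moved further than the 2 cycle genes that follow. *Cs*, citrate synthase, had 80.4 and 190.2 RPKM, and *Ogdh* 18.996 and 40.5, higher at day 2 but within the cutoff. *Pdha1* and *Pdhb*, of pyruvate dehydrogenase, rose from 41.2 to 109 RPKM and from 11.2 to 50.3 RPKM, *Pdha1* within the cutoff with TMM factors and with length and GC content removed. *Mpc1*, of the mitochondrial pyruvate carrier, rose from 3.01 to 9.83 RPKM.

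Most genes of the respiratory chain were a little higher at day 2. Of 37 expressed complex I genes 1 rose and none fell, yet the median was 0.75 and 33 lay above the median of all genes. Of 39 genes of complexes II to V 2 rose and none fell, with a median of 0.78 and 34 above that of all genes. *Cyc1*, cytochrome c1, was one of them and went from 87.8 to 270.5 RPKM. *Atp5b*, the catalytic subunit of ATP synthase, had 443 and 794 RPKM, within the cutoff. Breakdown of branched-chain amino acids had 12 rises and 1 fall among 24 expressed genes, with a median of 1.23. *Bcat2*, the mitochondrial transaminase, rose from 10.97 to 46.7 RPKM while *Bcat1*, the cytosolic one, fell from 16.5 to 3.07 RPKM. *Aldh6a1*, a late step for valine, rose from 5.30 to 57.4 RPKM. *Bckdhb*, of the branched-chain ketoacid dehydrogenase, rose from 4.70 to 24.9 RPKM. Mitochondrial fatty acid oxidation had 6 rises and 1 fall among 22, with a median of 1.05. *Acadl* and *Hadh*, of the oxidation spiral, rose from 12.1 to 41.8 RPKM and from 24.8 to 83.4 RPKM. *Cpt1a*, the gate for fatty acids in many tissues, had 12.9 and 6.16 RPKM, within the cutoff. Peroxisomes had 10 rises and no fall among 31, with a median of 0.97. *Cat*, catalase, rose from 15.6 to 84.1 RPKM. *Pex11a*, which divides peroxisomes, rose from 2.45 to 15.5 RPKM.

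Genes of glycolysis fell more often than they rose. Of 24 expressed genes 4 rose and 10 fell, the median was −1.22, and the summed level went from 2251 to 1058 RPKM. *Pkm*, pyruvate kinase, had 20265 reads at day 0, or 485 RPKM, and 6051 reads, or 108 RPKM, at day 2, a log2 ratio of −2.16 (95% interval −2.20 to −2.12). *Ldha*, lactate dehydrogenase A, went from 441 to 173 RPKM, but lay within the cutoff with the summed counts as denominator and with the length trend, or length and GC content, removed. *Slc16a3*, the exporter of lactate, went from 77.8 to 5.66 RPKM. Enolase (*Eno1*, 166 to 48.7 RPKM) fell too, while *Slc16a1*, another lactate carrier, rose from 9.48 to 36.9 RPKM. The first steps changed isoform. *Hk1*, a hexokinase of most cells, fell from 43.1 to 8.19 RPKM, and *Hk2*, the insulin-responsive one, rose from 8.65 to 33.7 RPKM. *Slc2a4*, the insulin-responsive glucose carrier GLUT4, had 29 reads at day 0, or 0.598 RPKM, and 1525 reads, or 23.5 RPKM, at day 2, a log2 ratio of 5.30 (95% interval 4.77 to 5.88). *Slc2a1*, the basal glucose carrier, had 69.6 and 31.02 RPKM, within the cutoff and above *Slc2a4* on both days. Of the middle steps, *Aldoa* had 494 and 353 RPKM, within the cutoff. Of 50-base windows of the transcript, 35.2% of those of *Pkm* and 25.2% of those of *Ldha* occur elsewhere in the genome, and the treatment of such reads is not given in the sources used here.

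**Figure D2:**
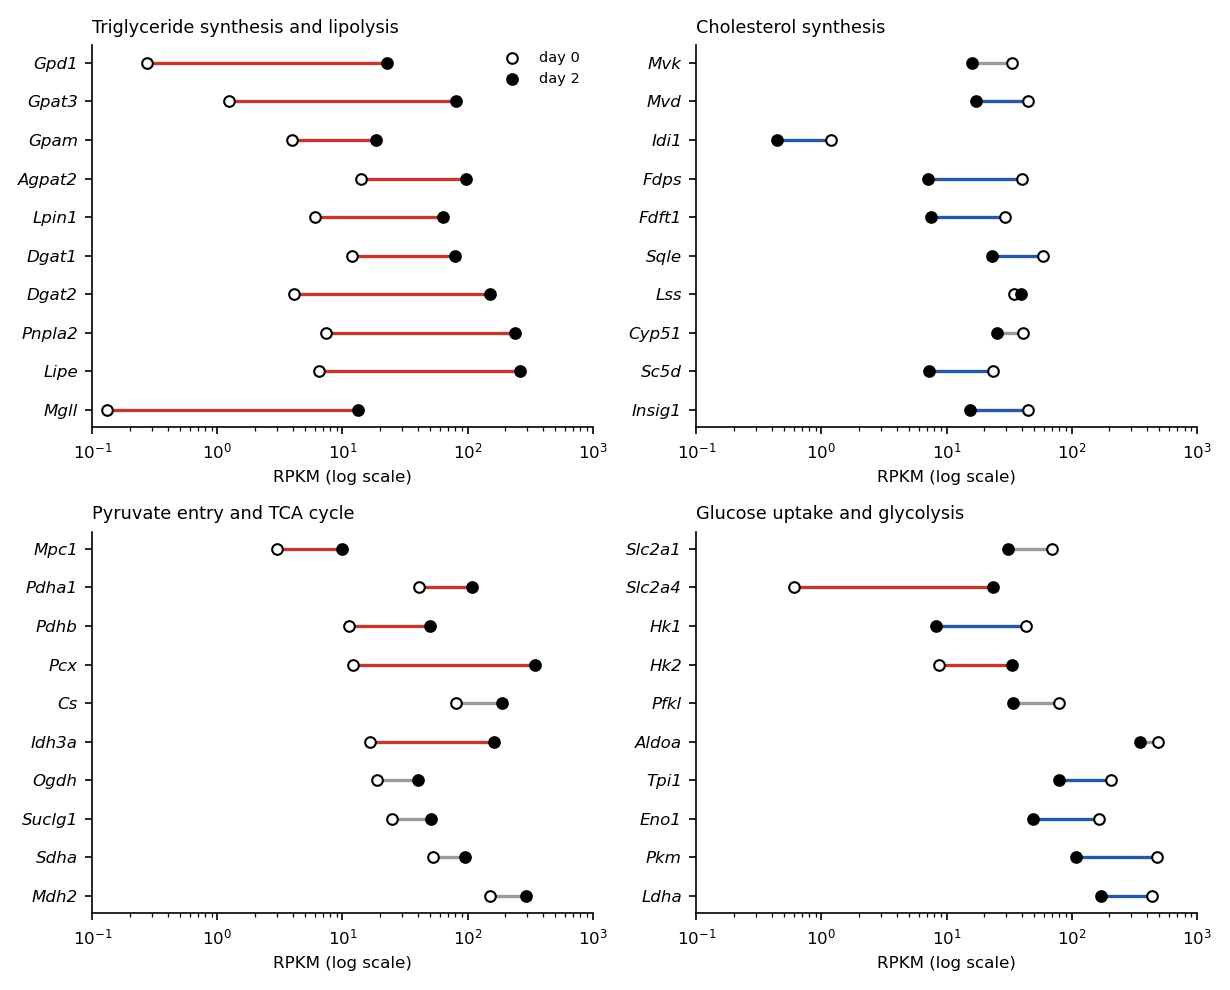
For 4 pathways, each row is 1 gene with its RPKM on a log scale in Ad-GFP cells at day 0 (open circle) and day 2 (filled circle), joined by a line that is red past 2.5-fold up, blue past 2.5-fold down and grey within. Triglyceride genes lie to the right at day 2, cholesterol genes to the left or within the cutoff, TCA cycle genes to the right or within, and glycolysis genes go both ways, with Slc2a4 and Hk2 to the right and Hk1, Tpi1, Eno1, Pkm and Ldha to the left.

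**Figure D3:**
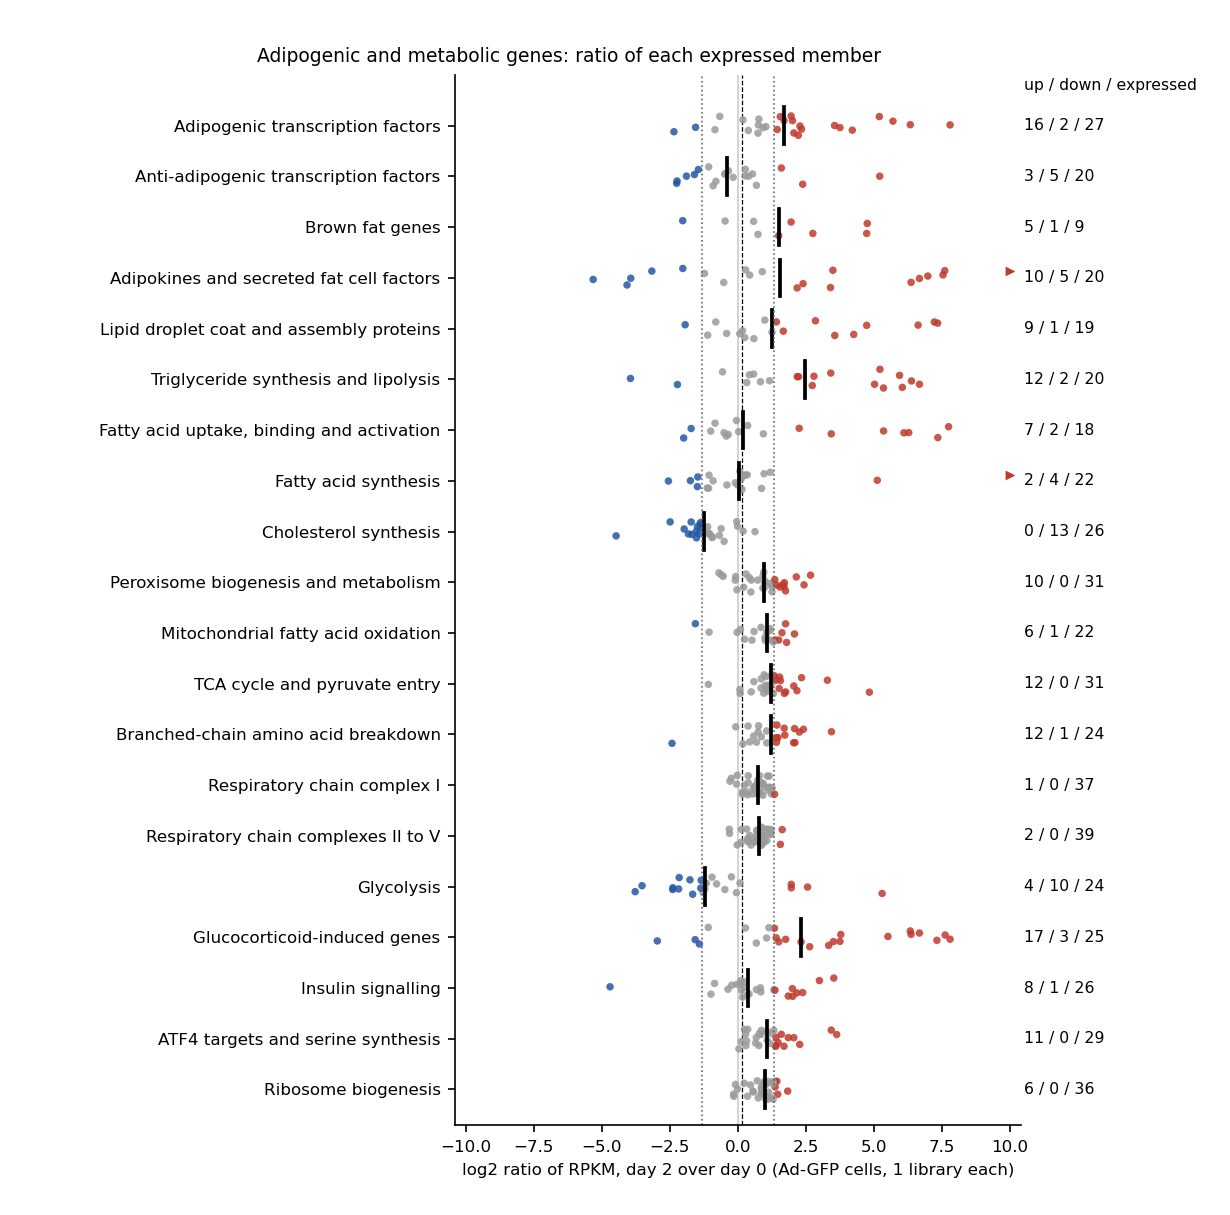
Each dot is the log2 ratio of RPKM of day 2 over day 0 of 1 expressed member of the list named on the y axis (red up, blue down and grey within 2.5-fold, dotted lines), a black bar is the list's median, a triangle at the edge a gene with no read at day 0, and the dashed line the median of all expressed genes, 0.15. The numbers give members up, down and expressed, from 12, 2 and 20 for triglyceride synthesis and lipolysis to 0, 13 and 26 for cholesterol synthesis.

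Brown fat genes were low at day 2. Of 25 written, 9 were expressed, of which 5 rose and 1 fell. *Ucp1* had 1 read and no read, *Cidea* none on either day, *Ppargc1a* 4 and 9 reads and *Dio2* 0 and 5 reads at day 0 and day 2. None of these 4 defining genes of the mature brown fat cell reached 1 RPKM. *Elovl3* had no read at day 0 and 31 at day 2, at 0.718 RPKM. *Prdm16*, a factor of the brown lineage, rose from 0.554 to 2.14 RPKM, within the cutoff with the pseudocount. *Adrb3*, the β3-adrenergic receptor of fat cells, rose from 0.0624 to 1.68 RPKM. *Zic1*, a marker of the brown preadipocyte, fell from 5.21 to 1.27 RPKM. *Ppargc1b*, which shares functions with *Ppargc1a*, rose from 0.525 to 27.2 RPKM.

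Secreted fat cell factors had 10 rises and 5 falls among 20 expressed genes, with a median of 1.53. *Angptl4*, an inhibitor of lipoprotein lipase, rose from 0.397 to 40.4 RPKM. *Hp*, haptoglobin, rose from 1.25 to 158 RPKM. *Apoe* rose from 6.14 to 64.8 RPKM. *Vegfa*, the growth factor for blood vessels, rose from 39.6 to 208 RPKM. *Retn*, resistin, had no read at day 0 and 55 at day 2, at least 13.7-fold higher with 3 reads as the limit. *Lep*, leptin, had no read on either day, and *Cfd*, adipsin, had 8 reads at day 2. *Adm*, the vasodilator adrenomedullin, fell from 64.4 to 1.61 RPKM.

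Of the pathways of the cocktail, the glucocorticoid list moved most: of 25 expressed genes 17 rose and 3 fell, with a median of 2.32. *Tsc22d3*, the leucine zipper protein GILZ, had 289 reads at day 0, or 7.82 RPKM, and 5303 reads, or 107 RPKM, at day 2, a log2 ratio of 3.78 (95% interval 3.61 to 3.95). *Fkbp5*, a co-chaperone of the receptor, rose from 24.004 to 242 RPKM. *Fam107a*, a stress-induced actin-binding protein, had 5 reads at day 0 and 1311 at day 2. *Hif3a* rose from 0.0418 to 6.65 RPKM. *Glul*, glutamine synthetase, rose from 10.3 to 117 RPKM. Some genes that glucocorticoids induce in other cells did not rise. *Sgk1*, a kinase, fell from 12.7 to 4.25 RPKM, *Anxa1*, annexin A1, fell from 85.3 to 10.9 RPKM, and *Dusp1* had 11.5 and 5.38 RPKM.

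The cAMP list, by contrast in its counts, had 3 rises and 4 falls among 19 expressed genes and a median of 0.04, beside 0.15 for all genes. *Nr4a1*, an early CREB target, had 7.12 and 6.41 RPKM, and *Fos* 1.06 and 0.727. *Pde3b*, the phosphodiesterase through which insulin lowers cAMP, had 399 reads at day 0, or 4.39 RPKM, and 9654 reads, or 79.5 RPKM, at day 2. *Rgs2*, which restrains G protein signals, rose from 0.734 to 16.3 RPKM. A list of adrenergic and other hormone receptors, most of them coupled to G proteins, had 5 rises and 6 falls among 13 expressed, and its median of −0.78 became 1.47 with an expression threshold of 0.5 RPKM. *Mc5r*, a melanocortin receptor, had 1 read at day 0 and 488 at day 2. *Npr1* and *Npr3*, the signalling and the clearance receptor for natriuretic peptides, went in opposite directions, from 0.358 to 20.9 RPKM and from 22.96 to 4.37 RPKM. *Ptgir*, the prostacyclin receptor, fell from 5.60 to 0.222 RPKM. *Lpar1*, a receptor for lysophosphatidic acid, fell from 15.2 to 2.61 RPKM.

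Prostaglandin synthesis, the pathway that indomethacin blocks, had 2 rises and 5 falls among 11 expressed genes. Both cyclooxygenases were among the falls. *Ptgs1* had 1182 reads at day 0, or 23.997 RPKM, and 63 reads, or 0.957 RPKM, at day 2, and *Ptgs2* had 336 reads at day 0, or 4.71 RPKM, and 29 reads, or 0.304 RPKM, at day 2. *Ptgis*, prostacyclin synthase, fell from 40.9 to 7.21 RPKM. Thyroid hormone receptors and targets had 5 rises and 2 falls among 10. *Thrsp*, a regulator of lipogenesis, rose from 0.112 to 3.90 RPKM. *Thra*, the main receptor gene here, rose from 34.9 to 92.3 RPKM, within the cutoff with TMM factors and with the length trend removed. *Slc16a10*, a transporter of T3 and aromatic amino acids, rose from 1.21 to 20.8 RPKM.

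Insulin signalling had 8 rises and 1 fall among 26 expressed genes, with a median of 0.38. *Insr*, the insulin receptor, rose from 4.74 to 19.1 RPKM. *Irs2*, an adaptor of the receptor, had 903 reads at day 0, or 13.1 RPKM, and 13866 reads, or 150.4 RPKM, at day 2, a log2 ratio of 3.52 (95% interval 3.42 to 3.62), and *Irs1*, the other adaptor, had 9.85 and 13.1 RPKM. *Pik3r1*, the regulatory subunit of PI3-kinase, rose from 7.37 to 58.6 RPKM. The receptor for IGF1 went the other way in its ratio but within the cutoff, with 15.7 and 8.63 RPKM for *Igf1r*. *Grb14*, an inhibitor of the insulin receptor, fell from 2.31 to 0.0886 RPKM. Of 15 expressed genes of the IGF system 4 rose and 2 fell. *Igfbp2* had 37 reads at day 0, or 1.62 RPKM, and 5100 reads, or 167 RPKM, at day 2. *Igfbp3* rose from 1.64 to 20.9 RPKM, *Pappa*, a protease that cleaves IGF-binding proteins, rose from 1.39 to 5.52 RPKM, and *Igfbp6* fell from 24.99 to 2.67 RPKM.

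Of 19 expressed clock genes 4 rose and 2 fell, with a median of 0.86. All 3 *Per* genes rose: *Per1* from 8.85 to 23.4 RPKM, *Per2* from 1.29 to 3.70 RPKM and *Per3* from 3.94 to 9.95 RPKM, though all 3 lay within the cutoff with the pseudocount, *Per1* and *Per3* also with TMM factors and *Per3* with the length trend removed. *Cry1* rose from 3.70 to 12.5 RPKM. The repressors *Bhlhe40* and *Bhlhe41* fell from 25.8 to 8.09 RPKM and from 3.97 to 1.38 RPKM, *Bhlhe41* within the cutoff with the pseudocount. *Clock* had 4.92 and 9.19 RPKM and *Arntl*, its partner BMAL1, 2.02 and 2.42, within the cutoff. Retinoid metabolism had 8 rises and 3 falls among 17. *Adh1*, which oxidizes retinol, had 24 reads at day 0, or 1.05 RPKM, and 2289 reads, or 74.6 RPKM, at day 2. *Aldh1a7*, an aldehyde dehydrogenase, had 1 read at day 0 and 306 at day 2. The binding protein *Crabp1* fell (142 to 1.82 RPKM), and *Rbp4*, the carrier of retinol in blood, rose from 0.140 to 1.57 RPKM, within the cutoff with the pseudocount.

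The transcripts of extracellular matrix genes changed in makeup, and matrix protein was not measured. Of 34 expressed matrix glycoproteins and proteoglycans 22 fell and 2 rose, with a median log2 ratio of −2.14, and their summed level went from 4452 to 1132 RPKM. *Tnc*, tenascin C, had 23625 reads at day 0, or 193 RPKM, and 965 reads, or 5.91 RPKM, at day 2, a log2 ratio of −5.03 (95% interval −5.13 to −4.94). *Thbs1*, thrombospondin 1, went from 134 to 5.35 RPKM. *Fn1*, fibronectin, which anchors integrins, went from 479 to 126 RPKM. *Sparc*, a collagen-binding glycoprotein, went from 625 to 106 RPKM. The falls included adhesive proteins and small proteoglycans such as biglycan. *Vcan*, versican, had 85.9 and 180.0 RPKM and *Postn*, periostin, 200.2 and 92.8, within the cutoff.

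The collagens went apart by type. Of 21 expressed, 4 rose and 6 fell, and the summed level was 3261 RPKM at day 0 and 3089 at day 2. Both chains of fibrillar type I collagen fell, *Col1a1* from 1247 to 65.8 RPKM and *Col1a2* from 249 to 22.5 RPKM. Both main chains of basement membrane type IV collagen rose. *Col4a1* (chromosome 8, 11198423 to 11312826, minus strand) had 11773 reads at day 0, or 103 RPKM, and 71451 reads, or 469.9 RPKM, at day 2, a log2 ratio of 2.18 (95% interval 2.15 to 2.21). Its partner *Col4a2* went from 87.4 to 370.4 RPKM. *Col15a1*, a collagen next to basement membranes, rose from 2.55 to 65.6 RPKM. Type VI collagen was already abundant and its 3 chains stayed within the cutoff. *Col6a1* had 468 and 819.9 RPKM, *Col6a2* 314 and 586, and *Col6a3* 150.5 and 259. *Col3a1*, the chain of fibrillar type III collagen, had 287 and 199 RPKM, also within.

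Of 15 expressed genes of laminins and the basement membrane 5 rose and 2 fell, with a median of 0.16, near that of all genes. The rises were *Col4a1*, *Col4a2* and 3 laminin chains. *Lama4* rose from 16.1 to 76.2 RPKM, *Lamb1* from 41.2 to 154 RPKM and *Lamc1* from 48.2 to 197 RPKM, 3 chains that assemble into 1 laminin. Another chain, *Lama5*, fell from 3.45 to 1.05 RPKM, within the cutoff with the pseudocount. *Nid1*, nidogen, had 107 and 118 RPKM, and *Hspg2*, perlecan, 162 and 97.5, within the cutoff. Enzymes that modify and cross-link collagen fell in 13 of 25 expressed genes and rose in none, with a median of −1.63. *Lox*, lysyl oxidase, had 19445 reads at day 0, or 314 RPKM, and 2852 reads, or 34.4 RPKM, at day 2, a log2 ratio of −3.19 (95% interval −3.25 to −3.13). *Serpinh1*, the collagen chaperone HSP47, fell from 821 to 263 RPKM. *P4ha3*, a prolyl hydroxylase, fell from 5.44 to 0.129 RPKM.

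Matrix proteases and their inhibitors fell in 15 of 28 expressed genes and rose in 4, with a median of −1.93. *Mmp14*, the membrane-bound collagenase, fell from 226 to 47.7 RPKM. The inhibitors *Timp1*, *Timp2* and *Timp3* fell from 62.7 to 9.34 RPKM, from 156 to 28.3 RPKM and from 31.5 to 4.48 RPKM, and *Timp4* rose from 0.0411 to 2.09 RPKM. The plasminogen activators *Plau* and *Plat* fell from 20.97 to 0.947 RPKM and from 43.01 to 2.46 RPKM. Proteases and inhibitors thus fell together. *Adamts12*, which cleaves cartilage proteins, rose from 6.09 to 34.03 RPKM, *Adamts1* fell from 226 to 36.6 RPKM and *Adamts5*, an aggrecanase, from 88.6 to 5.74 RPKM. Of 11 expressed integrins 6 fell and 1 rose. *Itgav*, a chain of the vitronectin receptors, fell from 24.4 to 9.02 RPKM, and *Itga7*, a laminin-binding chain, rose from 2.55 to 8.09 RPKM. *Itgb1*, the common β chain, had 152 and 87.99 RPKM, within the cutoff.

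Genes of smooth muscle and other targets of serum response factor (SRF) fell almost throughout. SRF binds the CArG box and is driven by its cofactors when actin is assembled into filaments. Of 25 expressed genes 19 fell and none rose, the median log2 ratio was −2.56, and the summed level went from 3692 to 473 RPKM. *Acta2*, smooth muscle actin (chromosome 19, 34315580 to 34329826, minus strand, NCBI37/mm9), had 23576 reads at day 0, or 770.1 RPKM, and 714 reads, or 17.5 RPKM, at day 2, a log2 ratio of −5.46 (95% interval −5.57 to −5.36). *Tagln*, transgelin, had 8703 reads at day 0, or 319 RPKM, and 261 reads, or 7.16 RPKM, at day 2. *Myl9*, a myosin light chain, went from 323 to 10.2 RPKM. *Tpm1*, a tropomyosin, went from 411 to 21.8 RPKM. *Cnn1*, calponin, went from 28.8 to 0.766 RPKM. These genes encode parts of one contractile apparatus of actin, myosin and their binding proteins. *Srf* itself had 38.9 and 28.3 RPKM, and its cofactors *Mrtfa* and *Mrtfb* had 34.5 and 8.78 RPKM at day 0 and 19.4 and 9.30 at day 2, all within the cutoff.

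Promoter windows of 4 genes of this list that fell are shown because each holds a CArG box (in capitals), the site that SRF binds, within the 250 bases before the start. They were taken from the RefSeq promoters of GRCm38.p6 and read 5′ to 3′ on the gene's strand, with 30 bases to each side of the box or up to the window's end.
Myl9 (chr2:156775273-156775342, plus strand): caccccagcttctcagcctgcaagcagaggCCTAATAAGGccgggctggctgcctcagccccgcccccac
Fhl2 (chr1:43163962-43164022, minus strand): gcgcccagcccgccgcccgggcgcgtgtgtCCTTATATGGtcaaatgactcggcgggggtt
Cnn2 (chr10:79988514-79988583, plus strand): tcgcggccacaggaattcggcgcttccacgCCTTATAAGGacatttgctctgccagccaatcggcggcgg
Filip1l (chr16:57549150-57549219, plus strand): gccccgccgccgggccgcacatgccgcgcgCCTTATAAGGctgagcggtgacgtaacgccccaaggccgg
Of 23 genes of the list with a promoter in the table, 7 held a CArG box in 300 bases, among them 4 of the 16 that fell, and 8 of their 30 promoters did so (26.7%) against 1.63% of all 32851 promoters. A match is a description of the letters, and no match says only that the box is not in this window. *Fhl2*, an adaptor at actin fibres, went from 40.4 to 2.09 RPKM, *Cnn2*, a calponin of non-muscle cells, from 317 to 25.8 RPKM, and *Filip1l* from 14.9 to 1.56 RPKM. *Srf* and *Vcl*, which also hold the box in their promoters, stayed within the cutoff.

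Targets of YAP/TAZ and TEAD, which answer to cell spreading and tension, had 3 rises and 11 falls among 31 expressed genes, with a median of −0.63. *Ccn2*, connective tissue growth factor, had 958 reads at day 0, or 23.2 RPKM, and 25 reads, or 0.453 RPKM, at day 2, a log2 ratio of −5.68 (95% interval −6.31 to −5.11). *Ccn1* went from 55.7 to 4.01 RPKM. *Ankrd1* went from 12.1 to 0.345 RPKM. The coactivators themselves stayed within the cutoff, with 56.9 and 54.5 RPKM for *Yap1* and 28.5 and 40.5 for *Wwtr1* (TAZ). *Amotl2*, another target, had 95.8 and 86.8 RPKM.

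In the TGF-β and BMP pathways 11 of 34 expressed genes fell and 2 rose. The ligands *Tgfb1* and *Tgfb3* fell from 31.5 to 9.76 RPKM and from 19.2 to 6.35 RPKM, and *Bmp4* from 2.74 to 0.0873 RPKM. *Inhba*, the activin A subunit, fell from 12.4 to 1.88 RPKM. The feedback inhibitors *Smad6* and *Smad7* fell from 10.4 to 3.62 RPKM and from 11.1 to 2.58 RPKM, *Smad6* within the cutoff with the pseudocount and with length and GC content removed. Of the receptors, *Tgfbr3*, betaglycan, rose from 13.6 to 84.3 RPKM, and *Tgfbr2* had 50.5 and 123 RPKM, within the cutoff.

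The Wnt pathway, which holds back adipogenesis when active, had 6 rises and 14 falls among 37 expressed genes, with a median of −0.46. The falls were of ligands, antagonists and receptors. *Wnt10b*, a ligand known for blocking adipogenesis, fell from 1.72 to 0.0195 RPKM. *Wnt5a* fell from 19.7 to 3.05 RPKM. *Sfrp2*, a secreted antagonist, had 1878 reads at day 0, or 54.6 RPKM, and 229 reads, or 4.98 RPKM, at day 2. The receptors *Fzd1* and *Fzd2* fell from 37.9 to 11.9 RPKM and from 63.4 to 17.3 RPKM. *Ccn5* was among the largest falls of the list with at least 100 reads in the higher library. Among the rises were some genes known as direct targets of β-catenin, whose activity was not tested. *Axin2*, a feedback inhibitor, had 9 reads at day 0, or 0.123 RPKM, and 282 reads, or 2.88 RPKM, at day 2, a log2 ratio of 4.55 (95% interval 3.61 to 5.69). *Lef1* had 6 reads at day 0, or 0.142 RPKM, and 297 reads, or 5.26 RPKM, at day 2, a log2 ratio of 5.21 (95% interval 4.07 to 6.67). *Notum*, which inactivates Wnt ligands, rose from 0.0864 to 1.08 RPKM, within the cutoff with the pseudocount. *Fzd4* and *Lrp5*, a receptor and a co-receptor, also rose, from 4.18 to 23.4 RPKM and from 29.3 to 119 RPKM. *Ctnnb1*, β-catenin, had 166 and 132 RPKM, within the cutoff.

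Growth factor receptors changed places. Of 19 expressed PDGF and FGF genes 6 rose and 6 fell, and their median of −0.53 became 1.17 over all RefSeq rows. *Pdgfra* had 8315 reads at day 0, or 73.6 RPKM, and 1152 reads, or 7.63 RPKM, at day 2, a log2 ratio of −3.27 (95% interval −3.36 to −3.18), and *Pdgfrb* had 89.9 and 39.3 RPKM, within the cutoff but past it with TMM factors. Of the FGF receptors, *Fgfr1* rose from 45.2 to 178 RPKM, *Fgfr2* from 4.35 to 50.9 RPKM and *Fgfr3* from 0.685 to 3.39 RPKM. *Fgf7*, a ligand, fell from 26.3 to 1.06 RPKM, and the FGF-induced factors *Etv4* and *Etv5* fell from 7.04 to 0.0745 RPKM and from 2.1603 to 0.569 RPKM, *Etv5* within the cutoff with the pseudocount. *Dusp6*, a phosphatase that restrains ERK, fell from 2.72 to 0.669 RPKM, within the cutoff with the pseudocount, while *Spry4*, an inhibitor of the same pathway, rose from 2.93 to 10.4 RPKM. Of 14 Notch genes 3 rose and 2 fell, with a median of −0.01 beside 0.15 for all genes. *Jag1*, a ligand, rose from 6.43 to 18.8 RPKM. *Notch1* rose from 17.5 to 44.9 RPKM, within the cutoff with TMM factors and with the pseudocount. Immediate-early genes fell in 9 of 23 and rose in 2, with a median of −1.22. *Junb* fell from 60.1 to 14.9 RPKM, *Egr1* had 29.2 and 13.4 RPKM within the cutoff, and *Myc*, a growth-promoting factor, rose from 18.3 to 92.8 RPKM.

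Interferon-stimulated genes fell more than any other of the 62 lists by their median, −2.96: of 45 expressed 35 fell and none rose, and their summed level went from 635 to 258 RPKM. These genes answer to type I interferon through a complex that includes STAT2 and IRF9 and binds the interferon-stimulated response element (ISRE). *Isg15*, a ubiquitin-like modifier, had 456 reads at day 0, or 35.1 RPKM, and 37 reads, or 2.13 RPKM, at day 2, a log2 ratio of −4.04 (95% interval −4.57 to −3.56). *Ifit1*, which binds viral RNA, had 412 reads at day 0, or 9.08 RPKM, and 32 reads, or 0.528 RPKM, at day 2. *Gbp2*, a guanylate-binding protein, had 91 reads at day 0, or 2.155 RPKM, and 1 read, or 0.0177 RPKM, at day 2. *Irf7*, which amplifies the response, went from 9.73 to 0.889 RPKM. All 4 of these were left at 2.13 RPKM or less. Of the factors, *Irf9* fell from 17.98 to 4.80 RPKM and *Stat2* from 17.3 to 6.38 RPKM, *Stat2* within the cutoff with the pseudocount. The sensors of viral RNA *Ddx58* (RIG-I) and *Ifih1* (MDA5) fell from 11.6 to 1.58 RPKM and from 2.19 to 0.347 RPKM, *Ifih1* within the cutoff with the pseudocount. *Ifitm3*, the most abundant member, had 214 and 107 RPKM, within the cutoff.

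Promoter windows of 4 of the genes that fell are shown, from the RefSeq promoters of GRCm38.p6 and on the gene's strand. In each, a match to the ISRE is in capitals (a pair of GAAA parted by any 2 bases, searched on both strands and allowed to overlap itself). Further matches in the *Isg15* and *Ifit1* windows are left in lower case.
Gbp2 (chr3:142620574-142620643, plus strand): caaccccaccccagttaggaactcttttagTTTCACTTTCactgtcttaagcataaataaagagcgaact
Ifit1 (chr19:34640755-34640824, plus strand): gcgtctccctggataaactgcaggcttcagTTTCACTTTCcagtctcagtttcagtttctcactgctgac
Isg15 (chr4:156200851-156200920, minus strand): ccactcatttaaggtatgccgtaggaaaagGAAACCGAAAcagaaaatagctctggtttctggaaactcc
Igtp (chr11:58199492-58199555, plus strand): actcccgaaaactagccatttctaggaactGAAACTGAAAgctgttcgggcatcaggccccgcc
Of 42 genes of the list with a promoter, 21 held the ISRE letters, among them 14 of the 27 that fell, and of their 50 promoters 22 did so (44%), against 3.44% of all promoters. *Igtp*, an interferon-induced GTPase, went from 6.70 to 0.452 RPKM. The letters were thus also in promoters of list genes that did not fall. *Bst2* and *Ifitm3*, which hold them, stayed within the cutoff.

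Antigen presentation and chemokines fell beside them. Of 18 expressed genes of MHC class I presentation 8 fell and none rose, with a median of −1.19. *B2m*, the light chain of class I molecules, fell from 141 to 48.4 RPKM. *Psmb8*, an immunoproteasome subunit, fell from 4.75 to 0.676 RPKM. *Tap1*, the peptide transporter, had 11.1 and 5.99 RPKM, within the cutoff. Of 16 expressed chemokines and cytokines 14 fell and none rose, with a median of −2.60. *Ccl2*, which draws monocytes, had 254 reads at day 0, or 18.3 RPKM, and 5 reads, or 0.270 RPKM, at day 2, a log2 ratio of −6.09 (95% interval −7.72 to −4.84). *Csf1*, the macrophage growth factor, fell from 81.2 to 14.99 RPKM. *Cxcl12*, a chemokine of stromal cells, fell from 229 to 63.7 RPKM. The transcription factors of the NF-kB pathway stayed within the cutoff, with 38.7 and 30.7 RPKM for *Rela*, while *Vcam1*, an adhesion molecule, fell from 31.8 to 1.63 RPKM and *Sod2* rose from 7.40 to 33.96 RPKM. Of 11 expressed complement genes, 2 rose and 3 fell, and *C4b* went from 0.205 to 2.64 RPKM beside the rise of *C3*.

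**Figure D4:**
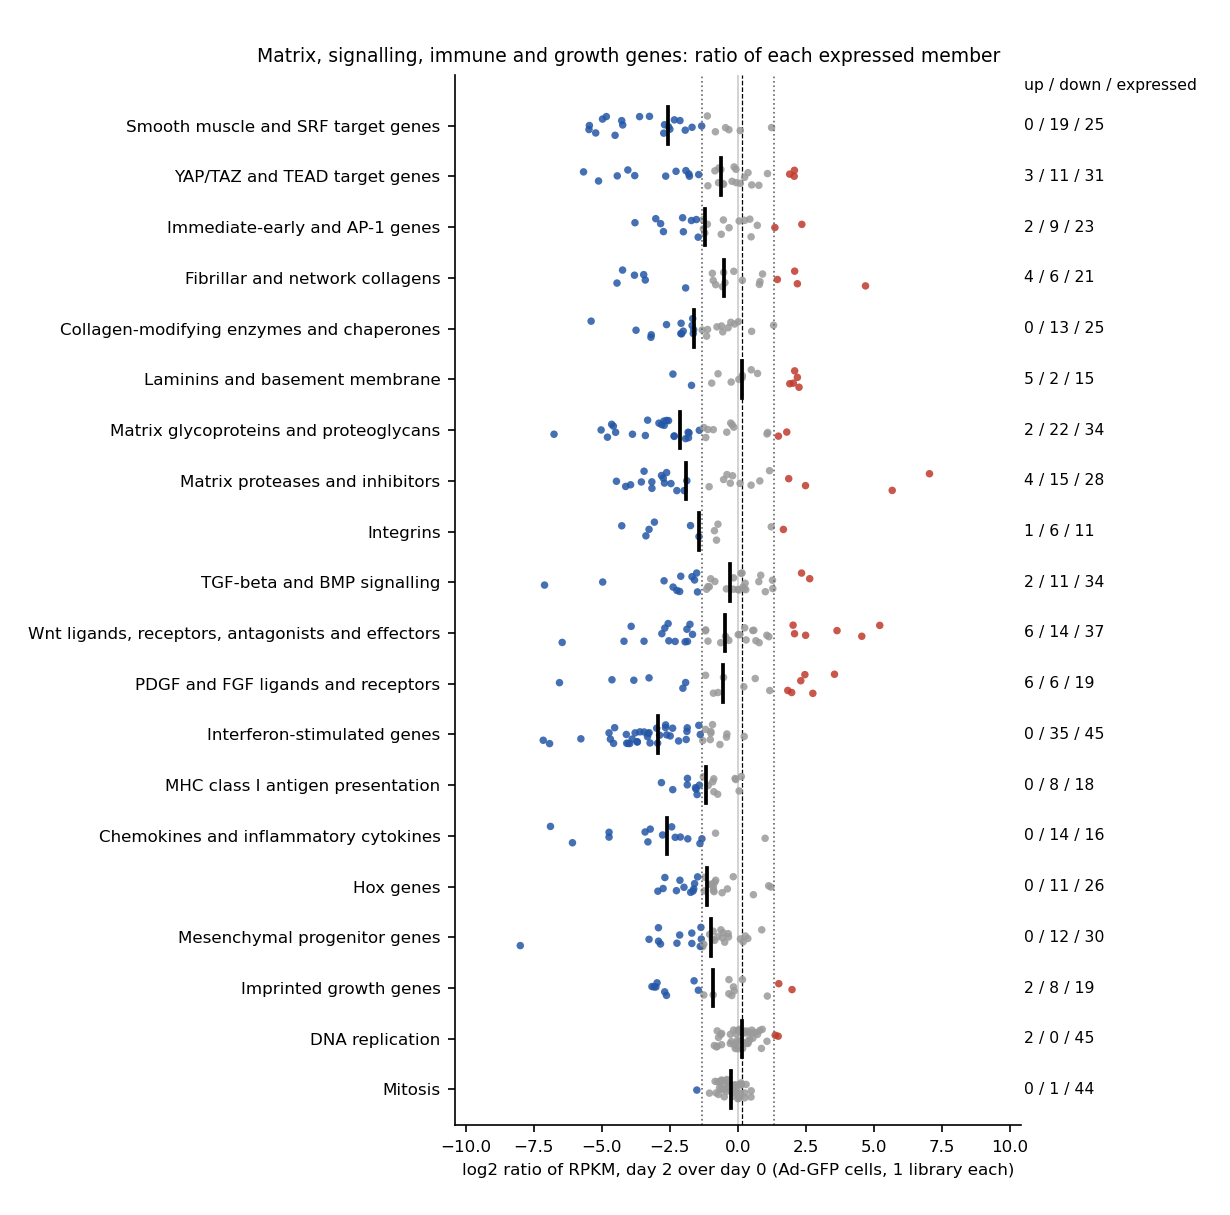
Each dot is the log2 ratio of RPKM of day 2 over day 0 of 1 expressed member of the list named on the y axis, with the same colours and marks as in the plot of metabolic lists (black bar, list median, and dashed line, median of all expressed genes, 0.15). The SRF target list has 19 members down of 25 and no member up, the interferon list 35 down of 45 and no member up.

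Stress pathways did not move as one. Targets of ATF4, the factor of the amino acid response, rose in 11 of 29 expressed genes and fell in none, with a median of 1.07. *Cth*, which makes cysteine, had 110 reads at day 0, or 3.55 RPKM, and 1817 reads, or 43.9 RPKM, at day 2, a log2 ratio of 3.63 (95% interval 3.35 to 3.92). *Mthfd2*, of mitochondrial folate metabolism, rose from 40.4 to 195 RPKM. *Asns*, asparagine synthetase, rose from 44.9 to 118 RPKM, within the cutoff with TMM factors, and *Trib3* from 21.999 to 79.2 RPKM. *Atf4* itself had 147 and 283 RPKM, within the cutoff. Of 22 expressed genes of endoplasmic reticulum stress 4 rose and none fell. *Ddit3* (CHOP) rose from 40.5 to 122 RPKM, and the chaperone *Hspa5* (BiP) had 225 and 207 RPKM. Heat shock genes had 2 rises and 3 falls among 20 (10% and 15%), with a median of 0.08. These shares are near those of all expressed genes, 8.38% up and 12.7% down. The 2 that rose are mitochondrial chaperones, *Hspd1* (26.6 to 168 RPKM) and *Hspe1* (29.1 to 96.9 RPKM). NRF2 and antioxidant genes had 4 rises and 9 falls among 34. *Nqo1*, an NRF2 target, fell from 7.38 to 1.04 RPKM, *Gpx1*, glutathione peroxidase, from 175 to 35.6 RPKM, and *Hmox1* had 37.3 and 27.4 RPKM. Of 19 hypoxia genes 3 rose and 4 fell, with *Vegfa* among the rises and *Adm* as the largest fall. Of 27 p53 targets 5 rose and 2 fell, with 41.01 and 53.1 RPKM for *Cdkn1a*.

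Few cell cycle genes moved past the cutoff. Of 45 expressed DNA replication genes 2 rose and none fell, with a median of 0.17 and 23 above the median of all genes. Of 44 mitosis genes 1 fell and none rose, with a median of −0.24 and only 5 above that of all genes. *Mcm2*, of the replicative helicase, had 76.03 and 108 RPKM. *Cdk1*, the mitotic kinase, had 32.7 and 28.8 RPKM. *Mki67*, the marker of cycling cells, had 51.5 and 28.7 RPKM. The cells came from a line that carries SV40T, which inactivates the retinoblastoma and p53 proteins. One cyclin stood apart. *Ccnd1*, cyclin D1 (chromosome 7, 152115836 to 152125774, minus strand, NCBI37/mm9), had 1242 reads at day 0, or 19.02 RPKM, and 59 reads, or 0.676 RPKM, at day 2, a log2 ratio of −4.81 (95% interval −5.22 to −4.44), while *Ccnd2* had 44.1 and 51.2 RPKM and *Ccnd3* 70.1 and 67.5. The CDK inhibitors *Cdkn1c* and *Cdkn2c* rose from 25.8 to 72.9 RPKM and from 44.3 to 126 RPKM.

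Of the growth machinery, ribosome biogenesis stood above the median of all genes and the proteasome and lysosome near it. Ribosome biogenesis had 6 rises and no fall among 36, with a median of 0.99. *Nolc1*, a nucleolar protein, rose from 20.9 to 56.2 RPKM, within the cutoff with TMM factors, and *Ncl*, nucleolin, had 40.5 and 55.7 RPKM. Ribosomal proteins had a median of 0.44 with 2 rises and 1 fall among 76, proteasome genes a median of 0.12 with 1 rise among 31, and lysosome and autophagy genes a median of 0.18 with 1 fall among 36. That fall was *Ctsh*, a cathepsin, from 6.16 to 0.348 RPKM.

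Genes of mesenchymal identity fell or stayed within the cutoff. Of 30 expressed progenitor genes 12 fell and none rose, with a median of −0.99. *Thy1*, a surface marker of fibroblasts, had 8785 reads at day 0, or 294 RPKM, and 1629 reads, or 40.8 RPKM, at day 2, a log2 ratio of −2.85 (95% interval −2.93 to −2.77). *Prrx1*, a homeobox factor of limb and body wall mesenchyme, fell from 38.2 to 8.07 RPKM. *Cd34* fell from 11.1 to 1.46 RPKM. *Twist1* had 51.01 and 40.1 RPKM, within the cutoff. Of 26 expressed Hox genes 11 fell and none rose, with a median of −1.15. *Hoxc8*, among the most abundant Hox genes here, fell from 48.8 to 16.1 RPKM. Of 15 tendon, cartilage and bone genes 7 fell and 1, *Alpl*, rose from 0.208 to 1.90 RPKM, within the cutoff with the pseudocount. *Tnmd*, tenomodulin, fell from 3.12 to 0.197 RPKM.

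Imprinted growth genes had 2 rises and 8 falls among 19 expressed, and 5 of the 8 lie in 1 region of chromosome 12 (NCBI37/mm9). In it, *Dlk1* is expressed from the paternal copy and *Meg3*, *Rian* and *Mirg*, which are long noncoding RNAs, from the maternal copy. *Dlk1* (chromosome 12, 110691033 to 110701546, plus strand) had a log2 ratio of −1.46 (95% interval −1.51 to −1.41). *Meg3* (chromosome 12, 110779211 to 110809936, plus strand) had 8060 reads at day 0, or 41.03 RPKM, and 1741 reads, or 6.63 RPKM, at day 2, a log2 ratio of −2.63 (95% interval −2.70 to −2.55). *Rian* had 2335 reads at day 0, or 37.9 RPKM, and 368 reads, or 4.47 RPKM, at day 2, a log2 ratio of −3.08 (95% interval −3.25 to −2.92). *Mirg* had 322 reads at day 0, or 14.4 RPKM, and 48 reads, or 1.61 RPKM, at day 2, and *Rtl1*, a paternal gene between them, 182 reads at day 0, or 2.02 RPKM, and 30 reads, or 0.249 RPKM, at day 2, a fall within the cutoff with the pseudocount. The genes of the region that fell thus include ones known for expression from each parental copy, though the reads were not assigned to a copy. *Dio3*, which inactivates thyroid hormone and lies at the far end (chromosome 12, 111517278 to 111519307, plus strand), had 29 reads at day 0, or 0.903 RPKM, and 142 reads, or 3.31 RPKM, at day 2 and rose, though within the cutoff with the pseudocount. Outside this region, *Peg10* fell from 215 to 27.3 RPKM, and *Mest*, known for its rise in expanding fat, rose from 33.96 to 135 RPKM.

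Of 29 histone methyltransferases, subunits of the MLL3/MLL4 complex and coactivators written, 2 matched no row and were not analysed here, and none of the 27 expressed moved past the cutoff, with a median of 0.30. *Kdm6a* (UTX), a demethylase in the complex, had 6.73 and 9.02 RPKM. *Kmt2d*, the current symbol of *Mll4*, had 18.49 and 18.7 RPKM. *Kmt2c*, the current symbol of *Mll3*, had 1.804 and 3.17 RPKM. The study knocked out *Mll3* with a gene trap, which a count over the whole transcript does not check. *Ezh2*, the H3K27 methyltransferase, had 17.1 and 19.8 RPKM.

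The same genes were read in the Ad-Cre cells, where *Kmt2d* had 16.3 RPKM at day 0 and 15.6 at day 2. Cre deletes only some exons of floxed *Mll4*, and a count over the whole transcript does not check the deleted part. In the Ad-Cre cells, 1043 of 11412 expressed genes rose (9.14%) and 1167 fell (10.2%) from day 0 to day 2. The 2 infections share no library, but no condition has a replicate and the differences between infections were not tested. In the Ad-Cre pair the ratio falls with transcript length, from a median log2 ratio of 0.85 in the shortest of the length bins to −0.67 in the longest, against 0.07 to 0.23 over all bins with Ad-GFP. Its part in each ratio was not tested, so each Ad-Cre median is given as deposited and after division by that trend. With both infections 281 genes rose, 29.1% of those that rose with Ad-GFP and 26.9% of those that rose with Ad-Cre, and 593 fell, 40.6% and 50.8%. Another 12 rose with Ad-GFP and fell with Ad-Cre, and 48 did the reverse. These counts use the Ad-Cre ratios as deposited, with the length trend left in. Glucocorticoid-induced genes had medians of 2.32 with Ad-GFP and 2.60 with Ad-Cre (2.58 after the trend). Interferon-stimulated genes had −2.96 and −2.09 (−2.01), and SRF targets −2.56 and −2.12 (−1.85). Cholesterol synthesis had −1.24 and −1.82 (−1.68). These 4 lists kept their sign in both infections. Triglyceride genes had 2.48 and 0.98 (0.94), and matrix glycoproteins −2.14 and −0.43 (−0.51). ATF4 targets had 1.07 and −0.17 (−0.20), and mesenchymal progenitor genes −0.99 and 0.28 (0.28), with opposite signs in the 2 infections. Complex I genes had 0.75 and 1.00, and 0.27 after the trend, which moved this list of short transcripts most among those named here.

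**Figure D5:**
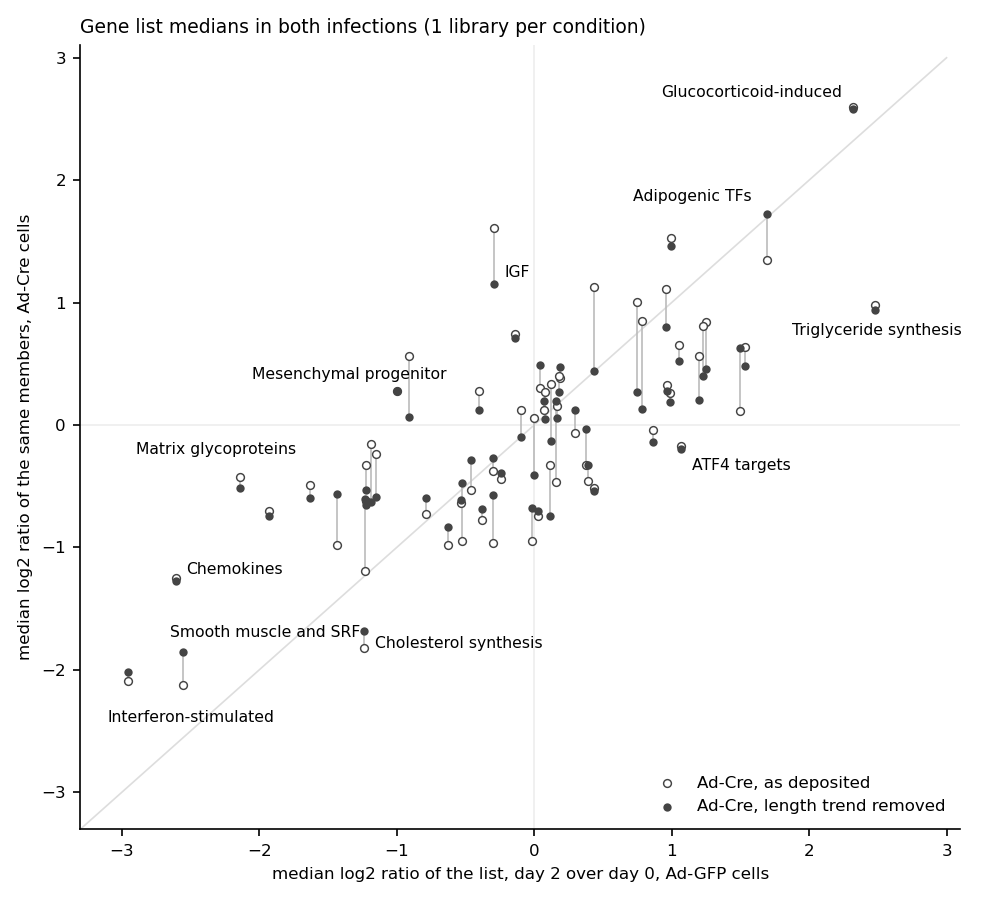
Each list's median log2 ratio of day 2 over day 0 in Ad-GFP cells (x axis) is set against the median of the same genes in Ad-Cre cells (y axis), as deposited (open) and after the length trend is divided out (filled), with a grey line where both would be equal. Glucocorticoid-induced, interferon-stimulated, SRF target and cholesterol lists lie with the same sign on both axes, and ATF4 targets and mesenchymal progenitor genes lie above 0 on one axis and below 0 on the other.

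Some of the named genes share sequence with others, so that reads may be lost to or gained from a copy. Of the 50-base windows of *Idi1* 81.3% occur elsewhere in the genome, of *Eno1* 71.6%, of *Mpc1* 63.4% and of *Fdps* 51.8%. *Acaca* (47.7%), *Hspd1* (46.1%), *Etv5* (37.2%), *Hspe1* (32.4%), *Insig1* (30.8%), *Pdhb* (24.5%), *Sod2* (24.2%) and *C4b* (21.9%) have fewer such windows. Exon bases are shared with another gene for *Vcl* (39.9%), *Notum* (38.1%), *Irs1* (30.9%), *Gpat3* (30%), *Mest* (23%), *Ccn2* (22.9%), *Ccnd1* (21.3%), *Timp3* (21.3%) and *Cebpb* (20.7%). The strand of the reads is not given in the sources used here, so such genes cannot be told apart from their neighbours where exons overlap.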

How the data were processed

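RNA-Seq libraries of 4 conditions were made from 1 immortalized *Mll3*-/- line with floxed *Mll4*, infected with Ad-GFP or Ad-Cre and taken at day 0 and day 2, with 1 library each. The authors sequenced 50-base reads, aligned them to NCBI37/mm9 and deposited 2 values for each RefSeq transcript. The first deposited value is the raw count of reads on its exons, and the second is the RPKM, in which the authors scaled that count to the exon length in kilobases and to the mapped reads of the library. The aligner's treatment of reads with several matches and the strand of the reads are not given in the sources used here. The submitters' processing notes name bedtools 2.16 and SICER 1.1, which no step used here needed.

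RPKM ratios of day 2 over day 0 were taken as deposited. No p-value was computed and no test was run, since each condition has 1 library. Exact binomial 95% intervals of the read ratio were computed with scipy 1.17.1. They cover counting error only, and PCR copies are not independent molecules. Against a library without reads, 3 reads were taken as the limit. For an alternative scaling, edgeR 4.0.16 (R 4.3.3) gave TMM factors. Scripts ran in Python 3.11.15 with pandas 2.3.3, numpy 2.4.6, numba 0.67.0 and matplotlib 3.10.9. The steps were tested on simulated data.

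Symbols and promoters (250 bases before to 50 after each start) came from RefSeq tables of GRCm38.p6, and GENCODE vM1, on NCBI37/mm9, gave coordinates and exons of 99.1% of the genes listed or ranked. The 62 gene lists and 7 marker lists were written by hand. Of the 1747 genes of the 62 gene lists, 1735 had a row and 1436 were expressed. The members, lists and families were chosen with earlier results of these data known, and the 28 families of the closing section, by the start of the symbol, after the values were seen. Genes named are members marked by role in the lists, the 3 largest rises and falls of each list with at least 100 reads in the higher library, and over all genes the 20 largest rises and falls by ratio and the 15 largest gains and losses in RPKM. Named after their values were seen, and outside this rule, are *Abhd5*, *Acsl3*, *Acsl4*, *Bhlhe41*, *Cd14*, *Cfd*, *Cidea*, *Cnn2*, *Col6a2*, *Ctnnb1*, *Dio2*, *Ebf2*, *Elovl3*, *Eno1*, *Etv5*, *Fhl2*, *Filip1l*, *Ifitm3*, *Igtp*, *Itgav*, *Lep*, *Lrp5*, *Mpc1*, *Mrtfa*, *Mrtfb*, *Notum*, *Nr3c1*, *Pappa*, *Pdha1*, *Pdhb*, *Ppargc1a*, *Rela*, *Rxra*, *Slc16a1*, *Srebf1*, *Timp2*, *Ucp1*, and the family members of the closing section. Some genes that this rule names are not reported here. Alternatives were the scaling, the expression threshold, the fold cutoff, a pseudocount, a minimum of reads, thinning, all RefSeq rows, the interval bound and a length trend, and, added after seeing the data, a trend over length and GC content.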

Additional observations from a re-analysis of the deposited data

Results flagged for a closer look

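Of the genes named by rule, 8 moved past 2.5-fold in opposite directions in the 2 infections, each with 1 library per condition, and none of these differences was tested. Reads are given for day 0 and then day 2. The first 3 rose with Ad-GFP and fell with Ad-Cre. *Adamts12*, a matrix protease, had 653 and 4877 reads with Ad-GFP, log2 ratio 2.48, and 1688 and 615 reads with Ad-Cre, log2 ratio −1.34. *Jag1*, a Notch ligand, had 607 and 2380 reads with Ad-GFP, log2 ratio 1.55, and 6689 and 883 reads with Ad-Cre, log2 ratio −2.81. *Spry4*, an inhibitor of growth factor signals, had 231 and 1098 reads with Ad-GFP, log2 ratio 1.83, and 533 and 186 reads with Ad-Cre, log2 ratio −1.41. The other 5 fell with Ad-GFP and rose with Ad-Cre. *Cd34*, a progenitor surface marker, had 500 and 88 reads with Ad-GFP, log2 ratio −2.92, and 18 and 141 reads with Ad-Cre, log2 ratio 3.08. *Htra1*, a secreted serine protease, had 1343 and 281 reads with Ad-GFP, log2 ratio −2.68, and 234 and 1259 reads with Ad-Cre, log2 ratio 2.54. *Igfbp6*, an IGF-binding protein, had 554 and 79 reads with Ad-GFP, log2 ratio −3.23, and 17 and 49 reads with Ad-Cre, log2 ratio 1.64. *Osr1*, a factor of mesenchymal progenitors, had 2076 and 855 reads with Ad-GFP, log2 ratio −1.70, and 997 and 3087 reads with Ad-Cre, log2 ratio 1.74. *H2-T23*, a nonclassical class I gene, had 79 and 29 reads with Ad-GFP, log2 ratio −1.86, and 16 and 40 reads with Ad-Cre, log2 ratio 1.44, its fall with Ad-GFP was within the cutoff with the pseudocount of 1 RPKM, and 30.6% of its 50-base windows occur elsewhere in the genome. After division by the length trend of the Ad-Cre pair, the Ad-Cre log2 ratios were −2.35 for *Jag1*, 3.06 for *Cd34*, 2.41 for *Htra1* and 1.61 for *Osr1*, still past the cutoff of 1.32. For *Adamts12* (−0.76), *Spry4* (−0.99), *Igfbp6* (1.16) and *H2-T23* (0.95) they were within it. All 8 genes already differed between the infections at day 0, so each ratio also carries its starting level. *Igfbp6* had 24.99 RPKM with Ad-GFP and 0.676 with Ad-Cre at day 0, then 2.67 and 2.11 at day 2. *Cd34* (11.1 and 0.352, then 1.46 and 2.98), *Jag1* and *H2-T23* were likewise further apart at day 0. *Adamts12* (6.09 and 13.9, then 34.03 and 5.47), *Osr1* and *Spry4* were further apart at day 2, and *Htra1* was apart on both days.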

How the results depend on the processing

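The count of genes that rose, 967, became 607 with 1 RPKM added to both sides, 614 where the interval bound nearest to 1 had to pass the cutoff, 1667 with a cutoff of 2-fold and 428 with a cutoff of 4-fold, and the count that fell, 1462, became 890 with a cutoff of 4-fold. Under the other alternatives the counts stayed within 1.5 times. They were 784 rises and 1621 falls with TMM factors and 1333 rises and 2005 falls over all RefSeq rows. Falls outnumbered rises under every alternative run, while the study's own count had more rises than falls. Of 62 list medians, the side relative to the median of all expressed genes changed for 6 over all RefSeq rows, 3 with a threshold of 0.5 RPKM, 3 with the length trend removed and 1 with length and GC content removed, and for none with TMM factors, the summed counts as denominator, 20 reads, thinning, 2 RPKM or the pseudocount. The lists that changed were fatty acid uptake, adrenergic receptors, Notch, cAMP, prostaglandin, PDGF and FGF, hypoxia, DNA replication and proteasome. The median of the adrenergic and cAMP-coupled receptors went from −0.78 to 1.47 with a threshold of 0.5 RPKM, and that of the PDGF and FGF genes from −0.53 to 1.17 over all RefSeq rows. With TMM factors 6 medians changed sign around 0. Among the expressed genes named, 9 crossed the cutoff with TMM factors (*Asns*, *Nolc1*, *Notch1*, *Pdgfrb*, *Pdha1*, *Per1*, *Per3*, *Rars2* and *Thra*), 23 with the pseudocount, 4 with length and GC content removed, 3 with length removed and 2 with the summed counts as denominator, and none reversed its direction. No leave-one-out was possible, since each condition has 1 library, so that counting intervals of single genes understate their error. No paired analysis was possible because each condition has 1 library.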

Other observations

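Gene families, picked by the start of the symbol after the values were seen, are described by their counts, beside 8.38% up, 12.7% down and a median log2 ratio of 0.15 over all expressed genes. The calcium-binding S100 proteins and annexins and the galactoside-binding galectins had lower summed levels at day 2. Of 8 expressed S100 genes 6 fell and none rose, and their summed level went from 1431 to 178 RPKM. *S100a6* had 10456 reads at day 0, or 846 RPKM, and 538 reads, or 32.6 RPKM, at day 2, and *S100a11*, of whose windows 53.2% are repeated, went from 198 to 29.4 RPKM. Of 10 annexins 6 fell and 1 rose, and the sum went from 802 to 169 RPKM. *Anxa2*, which links membranes to actin, had 8201 reads at day 0, or 347 RPKM, and 1774 reads, or 56.2 RPKM, at day 2. Of 7 galectins 4 fell and 2 rose. *Lgals1* had 16525 reads at day 0, or 1201 RPKM, and 2665 reads, or 145 RPKM, at day 2, while *Lgals12*, a galectin of lipid droplets, rose from 0.0844 to 12.2 RPKM. Of 13 expressed tubulins 5 fell, with *Tuba1a* going from 146 to 5.82 RPKM and *Tubb2b* from 27.1 to 0.340 RPKM, and 69.6% and 55.2% of their 50-base windows occur elsewhere in the genome. Guidance genes fell more often than they rose, with 7 falls and 2 rises among 19 semaphorins and plexins and 6 falls and 1 rise among 16 ephrins and Eph receptors. *Sema3a* fell from 10.5 to 0.400 RPKM and *Epha2* from 12.2 to 1.04 RPKM, while *Plxnd1* rose from 17.4 to 88.3 RPKM. Of 35 cadherins and protocadherins 9 fell and none rose, among them *Cdh11*, a cadherin of mesenchyme, from 54.7 to 17.1 RPKM.

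Families of transport and metabolism had other counts. Of 7 expressed carbonic anhydrases 3 rose and none fell, and the summed level went from 12.9 to 148 RPKM. *Car3*, an abundant protein of fat and muscle, had 16 reads at day 0, or 0.608 RPKM, and 2766 reads, or 78.7 RPKM, at day 2, and *Car5b*, a mitochondrial form, had 35 reads at day 0, or 0.590 RPKM, and 3075 reads, or 38.8 RPKM, at day 2. Of 37 mitochondrial solute carriers 11 rose and 2 fell. *Slc25a42*, a carrier of coenzyme A, rose from 3.28 to 28.7 RPKM, *Slc25a10*, the dicarboxylate carrier, rose from 10.8 to 42.2 RPKM, and *Slc25a24*, a carrier of ATP and magnesium, fell from 23.2 to 1.27 RPKM. Of 28 amino acid transporters 5 rose and 4 fell, and *Slc1a5* had 1219 reads at day 0, or 25.7 RPKM, and 27704 reads, or 437 RPKM, at day 2. *Slc7a1*, a carrier of arginine and lysine, rose from 14.5 to 48.6 RPKM, and *Slc6a6*, the taurine carrier, fell from 45.6 to 13.2 RPKM. Of 12 serpins 4 rose and 7 fell, and the 4 that rose are all of the *Serpina3* cluster, led by *Serpina3n*, which had 21 reads at day 0, or 0.586 RPKM, and 3683 reads, or 76.8 RPKM, at day 2. Mitochondrial ribosomal proteins had 5 rises and 1 fall among 76 and a median of 0.71. Of 35 aminoacyl-tRNA synthetases 3 rose, a share near that of all genes, and none fell. They were *Mars2* (2.00 to 11.7 RPKM), *Nars2* (0.728 to 4.16 RPKM) and *Rars2* (2.96 to 7.81 RPKM), the last within the cutoff with TMM factors, with the pseudocount and with length and GC content removed.

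The level listed for a cytoplasmic ribosomal protein went with the uniqueness of its sequence. The 14 genes with under 25% of their 50-base windows repeated in the genome had a median of 87.0 RPKM at day 0 and 141 at day 2, the 43 with 25% to 75% had 11.1 and 15.5, and the 19 with over 75% had 3.80 and 4.24. The median log2 ratios of the 3 groups, in that order, were 0.44, 0.25 and 0.60. *Mir675*, which lies within the exons of the noncoding RNA *H19* with 100% of its bases, had 279 reads at day 0 and 1274 at day 2, with 1.77 (95% interval 1.58 to 1.96) as its log2 ratio, and its reads cannot be told apart from those of its host, which was not analysed here.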
